A study of Mus musculus with 6 samples.

Results

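Type I interferon-stimulated genes are switched on in almost every cell type once interferon alpha or beta reaches its receptor, and here 40 of them, 38 with a row in the files of 32285 genes, were followed across the immune cells of 6 mice. The 40 genes were listed by name from their known induction by type I interferon. Mx1 and Mx2 are on the list and were not analysed here. Each of the 6 samples was a single-cell RNA library from 1 female C57BL/6 mouse bearing an orthotopic tumor of KPCA, a mouse ovarian cancer line that is proficient in homologous recombination, with altered Trp53, Ccne1 and Akt2 among its changes, that all the groups carried. The mice were controls given vehicle and a control IgG, or received 2-Deoxy-D-glucose (2DG), a glucose analog used in the study to lower branched N-glycans, 2F-Peracetyl-Fucose (2FF), a fucose analog that inhibits fucosylation, an antibody to PD-L1 (aPDL1 in the labels, anti-PD-L1 below), or the antibody together with either 2DG or 2FF. The tumor cells of both 2FF groups had been treated with 2FF before implantation, so these groups differ from the others in the graft as well. The labels call the tissue lymph node, whereas the study describes tumors, and the series text speaks of young and aged mice without giving an age for any sample. The study's methods give 1 age range, of several weeks, for the C57BL/6 mice at implantation and describe no aged mice.

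As background, type I interferons bind the Ifnar1 and Ifnar2 receptor, the kinases Jak1 and Tyk2 phosphorylate STAT2, and STAT2 and IRF9 act in the ISGF3 complex, which binds the interferon-stimulated response element in the promoters of its target genes. Many targets can also be reached through IRF factors downstream of nucleic acid sensors, and several respond to interferon gamma. In tumors, dendritic cells and macrophages that sense nucleic acids are known sources of interferon beta. The 38 genes were ordered by role. Isg15, the ubiquitin-like protein, Usp18, the protease that removes it and restrains receptor signaling, and Herc6, its ligase in mice, form the ISG15 system. Ifit1, Ifit1bl1, Ifit2, Ifit3 and Ifit3b are the IFIT family, whose proteins bind foreign RNA. Oas1a, Oas2 and Oas3 make the 2-5A messenger that activates RNase L, Oasl1 and Oasl2 are their relatives, and Isg20 is an exonuclease. Antiviral effectors were Rsad2 (viperin), Cmpk2, the mitochondrial nucleotide kinase beside it, Bst2 (tetherin), Ifitm3, which blocks viral entry, Eif2ak2 (the kinase PKR), Ifi44, Samd9l and Slfn5. Ifih1 (MDA5), Ddx58 (RIG-I), Dhx58 (LGP2), Zbp1, Ifi204 and Ifi209 are sensors or related nucleic acid-binding proteins. Stat2, Irf7, Irf9, Sp100 and Phf11d were grouped as signaling and nuclear factors, and Xaf1, Rtp4, Parp14, Trim30a and Ms4a4c as others.

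All 38 genes are protein-coding in the GRCm38 annotation. Chromosome 19 holds 6 of them and chromosome 5 holds 5, and both groups include neighbouring copies. The IFIT genes lie side by side on chromosome 19 (Ifit2 at chr19:34550694-34576419, Ifit3 at chr19:34583531-34588731, Ifit1bl1 at chr19:34592891-34601956, Ifit3b at chr19:34607970-34613401 and Ifit1 at chr19:34640871-34650009). Reads shared by such close copies may be split or lost in counting, so values of Ifit3 and Ifit3b, of Ifit1 and Ifit1bl1, and of Oas1a, Ifi204, Ifi209 and Ms4a4c, which also have near relatives, are uncertain to that extent.

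The promoter sequences are shown because they carry the feature that the family is known for and that the choice of genes did not use. RefSeq (GRCm38.p6) gave a promoter window of 300 bases, of which 250 lie before the annotated start, for 31 of the 38 genes. The core of the response element was searched on either strand as GAAA, then 2 bases of any kind (NN), then GAAA again, with overlapping matches counted. It was found in 16 of 31 genes, or 51.6% (exact binomial 95% interval 33.1 to 69.8), against 1079 of all 27025 genes with a window, or 3.99%. With a C required directly after the last GAAA it was found in 13 of 31 genes (41.9%) against 255 of 27025 (0.944%). The stretches below are written along the strand of the gene, and capitals mark the matched letters, with TTTC standing where the match is on the opposite strand.
Isg15, chr4:156200850-156200921, minus strand: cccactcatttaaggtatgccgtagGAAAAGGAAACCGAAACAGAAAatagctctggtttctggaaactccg
Oas1a, chr5:120907526-120907570, minus strand: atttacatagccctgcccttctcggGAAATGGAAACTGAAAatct
Oas3, chr5:120777700-120777759, minus strand: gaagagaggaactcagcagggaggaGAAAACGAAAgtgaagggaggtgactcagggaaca
Bst2, chr8:71537562-71537627, minus strand: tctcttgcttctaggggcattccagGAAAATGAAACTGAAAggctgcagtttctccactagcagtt
Rsad2, chr12:26456538-26456597, minus strand: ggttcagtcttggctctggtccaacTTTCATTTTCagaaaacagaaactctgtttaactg
Ifit1, chr19:34640760-34640838, plus strand: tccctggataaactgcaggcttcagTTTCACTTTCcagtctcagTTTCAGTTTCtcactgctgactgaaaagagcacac
Ifit3, chr19:34583348-34583441, plus strand: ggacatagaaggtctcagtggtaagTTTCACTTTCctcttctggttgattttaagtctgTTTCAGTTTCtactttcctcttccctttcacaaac

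In Isg15, 3 overlapping matches lay 78 to 57 bases before the start, and in Oas1a 2 matches lay 20 to 5 bases before it. Bst2 had 2 overlapping matches at 130 to 115 bases, and Ifit1 had 2 separate ones between 104 and 76 bases, both read on the opposite strand. The 94 bases shown for Ifit3 also stand, letter for letter, before Ifit3b at chr19:34607744-34607837, which shows how alike these copies are. Ifih1, Ddx58, Ifitm3 and Eif2ak2 had their match after the start. Sp100, Irf7, Irf9, Ifit2, Oasl1 and Oasl2 were among the 15 genes whose window did not contain these letters. A match in a window is a description of the sequence and not evidence of binding.

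The libraries held 61859753 to 73885214 UMIs, and 51633 of 57078 barcodes were kept, 7703 to 9222 a library. Pairs of libraries had 12 to 27 barcodes in common. Cells were sorted into 14 classes by marker genes, none of them an interferon-stimulated gene of the list. The control library stood apart in its makeup. It gave 3513 neutrophils against 303 to 549 in the other libraries, and 126 CD8 T cells against 1170 to 2082. Classical monocytes were numerous throughout (1148 to 2972 cells), as were C1q macrophages (1078 to 1918). Madcam1, a marker of node vessels, had 5 UMIs over all classed cells. Pdpn, found on stroma and macrophages, had 29541 and Cr2, of follicular cells and B cells, had 1242. No class was defined by markers of vessel or stromal cells, so these counts cannot tell lymph node from tumor. With 1 mouse a treatment, single treatments have no replicate, and mouse, treatment and library cannot be told apart. The effect of the antibody was tested over the 3 pairs without and with it. Intervals given for them cover counting error alone.

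Across cell classes the interferon-stimulated genes were highest in classical monocytes and neutrophils and intermediate in type 2 dendritic cells, C1q macrophages and non-classical monocytes. They were lower in mature, type 1 and plasmacytoid dendritic cells and in lymphocytes. The level is given as CPM, the count scaled to a fixed total of UMIs in the class, and the level of the whole list as the mean of log2(CPM + 5) over its 38 genes. This mean was 6.94 ± 0.54 (SD, n = 6 libraries) in classical monocytes and 6.92 ± 0.40 in neutrophils, and the ranges of these classes overlapped. It was 6.14 ± 0.40 in type 2 dendritic cells, 6.11 ± 0.33 in C1q macrophages and 6.09 ± 0.34 in non-classical monocytes, 3 classes whose libraries overlapped. Mature dendritic cells followed at 5.40 ± 0.47. The lymphoid classes were lower and closer together, with Treg cells at 5.23 ± 0.10, CD8 T cells at 5.19 ± 0.13, conventional CD4 T cells at 5.09 ± 0.07, B cells at 4.95 ± 0.38 and NK cells at 4.60 ± 0.27. Type 1 dendritic cells, at 5.03 ± 0.11 and from 4.863 to 5.183, lay below every library of type 2 dendritic cells (5.373 to 6.487). Their libraries overlapped those of mature (4.959 to 6.225) and plasmacytoid dendritic cells (4.783 to 5.554). Plasmacytoid dendritic cells, known for making interferon alpha, were at 5.22 ± 0.32 in the 5 libraries with at least 20 of them. Libraries of type 1 and of plasmacytoid dendritic cells also overlapped those of Treg cells (5.11 to 5.376) and CD8 T cells (5.028 to 5.375).

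**Figure D1:**
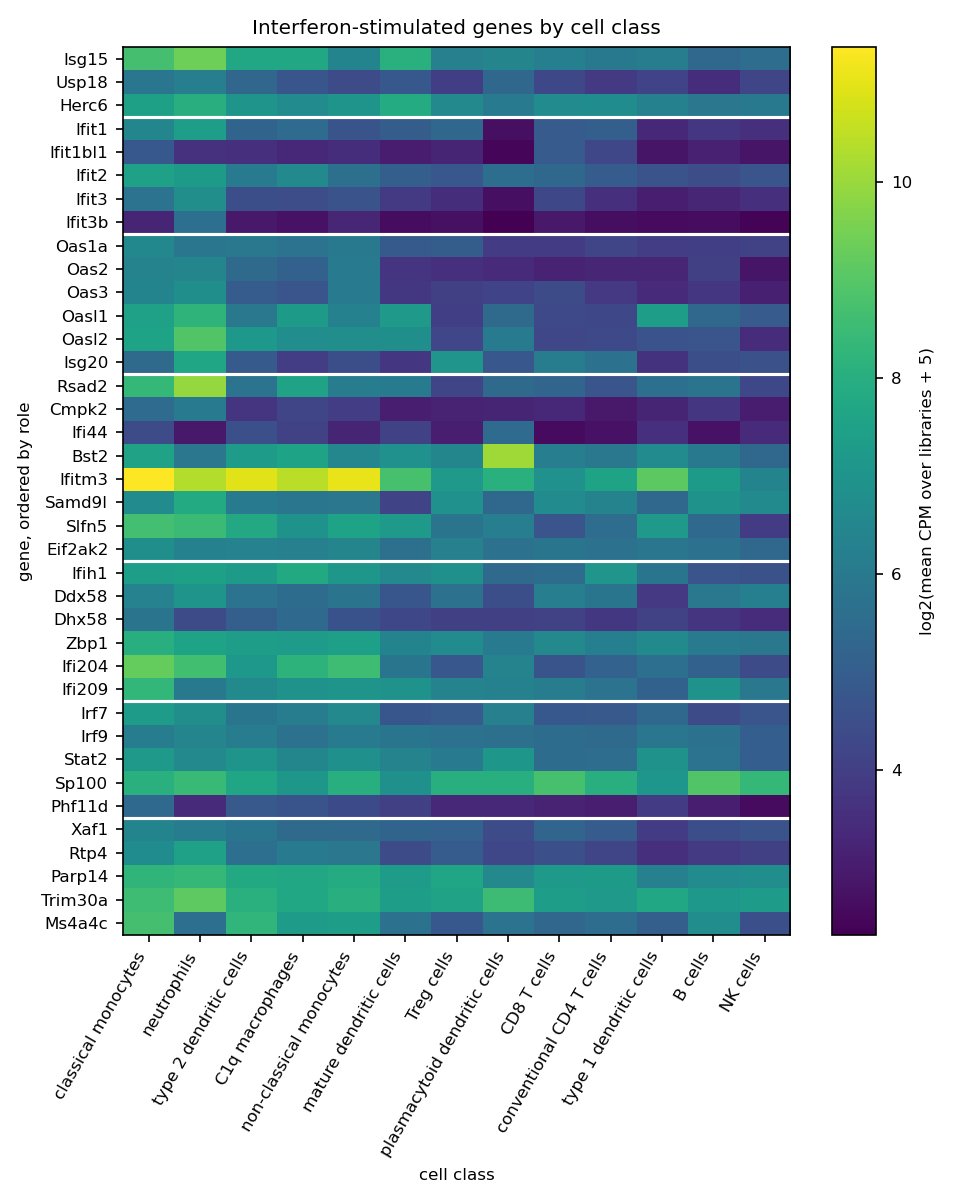
Each cell of the map is log2 of the mean CPM over libraries plus 5 for 1 gene (rows, grouped by role with white lines) and 1 cell class (columns, ordered by the mean over genes). The left columns, classical monocytes and neutrophils, are the brightest for most genes, and Bst2 stands out in plasmacytoid dendritic cells.

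Neutrophils had the highest mean level of 19 genes and classical monocytes of 14. For 6 of the 38 genes the libraries of the highest class did not overlap those of the next one. These counts were not made over all genes and describe the list alone. Rsad2 was at 983 ± 443 CPM in neutrophils, from 601 to 1800, against 324 ± 158 in classical monocytes, from 152 to 586. Oasl2, Ifit3b and Samd9l were likewise highest in neutrophils, and Ifi209 in classical monocytes. Bst2, which tethers virions and is a known surface marker of plasmacytoid dendritic cells in mice, was at 1078 ± 192 CPM there (n = 5, from 853 to 1272), against 185 ± 29.2 in C1q macrophages.

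Genes led by other classes mostly overlapped their neighbours. Ifih1 was highest in C1q macrophages at 222 ± 65.8 CPM, with neutrophils at 172 ± 60.3. Sp100, a component of nuclear bodies, was highest in B cells at 475 ± 55.6 CPM, ahead of CD8 T cells at 422 ± 30.3. Ifit1bl1 was highest in CD8 T cells at 25.6 ± 6.57 CPM, and classical monocytes were at 23.0 ± 13.7. Ifi44 in plasmacytoid dendritic cells rested on 5 to 21 UMIs a library. In these cases the order of the neighbouring classes is within the spread over libraries.

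Class differences were tested on UMIs summed by library and class with edgeR's quasi-likelihood test, with the library as a block and Benjamini-Hochberg adjustment over 12744 genes. A gene was called when the adjusted p was under 0.05 and the change at least 2-fold. Between C1q macrophages and classical monocytes, 19 of 38 interferon-stimulated genes were lower in macrophages, none was higher by edgeR or DESeq2, and the median log2 difference was -1.01, where 10.4% of all genes were called in either direction with a median of -0.02. For the class contrasts the share of all genes at an unadjusted p under 0.05 was not computed, and 10.4% is not its background. At that looser cut by edgeR, regardless of size, 35 genes were lower and 0 higher. Isg15 is an example, at 86.4, 179, 263, 139, 272 and 278 CPM in macrophages against 172, 281, 506, 304, 578 and 647 in classical monocytes (6 values always run from control over 2DG alone, 2FF alone and the antibody alone to its combination with 2DG and then with 2FF, and 5 values leave control out). Macrophages were below monocytes in every library. The log2 difference of Isg15 was -1.16 (SE 0.19, adjusted p = 1.23e-06). The most negative were Ifit1bl1 at -2.21 (SE 0.24, adjusted p = 2.14e-11), Oas3 at -2.03 (SE 0.17, adjusted p = 2.71e-16) and Isg20 at -1.94 (SE 0.19, adjusted p = 2.09e-13). The least negative or positive were Ifih1 at 0.31 (adjusted p = 0.166), Bst2 at -0.09 and Oasl1 at -0.39, none of them called.

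Non-classical monocytes, the patrolling cells that arise from classical ones, were lower than classical monocytes for 18 of 38 genes and higher for none by edgeR or DESeq2, with a median of -0.88, and 13.2% of all genes were called. At an unadjusted p under 0.05 by edgeR, 33 genes were lower and 0 higher, without a share of all genes beside them. Isg15 was at 72.4, 61.7, 113, 60.2, 84.2 and 90.1 CPM there, a log2 difference of -2.40 (SE 0.21, adjusted p = 2.88e-15). Rsad2 was at 75.4, 52.4, 90.8, 58.2, 33.8 and 77.0 CPM, a difference of -2.34 (SE 0.41, adjusted p = 2.45e-06). For both genes the non-classical libraries lay entirely below the classical ones. Ifit1 followed at -2.04 (SE 0.29, adjusted p = 2.25e-08). At the other end Ifit3b (0.06), Sp100 (-0.16) and Irf9 (-0.21) were not called.

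Neutrophils and classical monocytes differed in which genes they carried. In neutrophils 11 of 38 genes were higher and 7 lower, with a median of 0.45, where 31.0% of all genes were called between these classes, a high background for the 18 called here. The higher ones were led by Ifit3b at 3.65 (SE 0.23, adjusted p = 1.77e-22), Isg20 at 2.72 (SE 0.18, adjusted p = 8.39e-21) and Rsad2 at 1.93 (SE 0.38, adjusted p = 1.21e-05). Isg15, Ifit1, Ifit3, Oasl1, Oasl2, Ddx58, Rtp4 and Samd9l completed them, which covers 3 of the 5 IFIT genes and both OAS-like genes. Lower were Ms4a4c at -2.95 (SE 0.20, adjusted p = 1.53e-20), Ifi44 at -2.38 (SE 0.37, adjusted p = 7.61e-08), Phf11d at -2.34 (SE 0.22, adjusted p = 4.74e-15), Ifi209, Bst2, Ifit1bl1 and Dhx58. Isg20 was at 171, 128, 275, 147, 188 and 266 CPM in neutrophils against 20.9, 24.6, 46.4, 24.8, 59.2 and 54.0 in classical monocytes, with no overlap. Without the control library, which held most neutrophils, the higher genes numbered 7 instead of 11.

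Between type 1 and type 2 dendritic cells, the type 1 subset, which cross-presents antigen, had the lower levels. Of 38 genes 23 were lower in type 1 than in type 2 dendritic cells and 1 was higher, with a median of -1.52, where 17.6% of all genes were called. Ms4a4c was lowest at -3.41 (SE 0.22, adjusted p = 1.09e-20), then Oas2 at -3.23 (SE 0.32, adjusted p = 3.73e-13) and Oasl2 at -2.74 (SE 0.24, adjusted p = 3.79e-15). Oasl1, a known negative regulator of Irf7 translation, went the other way. It was at 129, 171, 175, 152, 144 and 178 CPM in type 1 against 26.3, 72.6, 52.8, 56.5, 70.0 and 63.3 in type 2 dendritic cells, with no overlap, at 1.41 (SE 0.26, adjusted p = 6.9e-06).

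Few of the genes passed the call between the T-cell classes. Between CD8 and conventional CD4 T cells 2 genes were higher and 1 lower of 38, and 5.91% of all genes were called. The median log2 difference was 0.305, against 0.021 for all genes. At an unadjusted p under 0.05 by edgeR, regardless of size, 16 genes were higher and 4 lower, again without a share of all genes. Ifih1, lower in CD8 T cells at -1.59 (SE 0.20, adjusted p = 3.02e-09), was at 30.6 to 48.2 CPM in CD8 T cells and at 63.4 to 167 in CD4 T cells. Ifit3 (1.06, adjusted p = 0.0157) and Ifit3b (1.17, adjusted p = 0.0134) were higher, on few UMIs and with the doubt about copies. In Treg cells against CD4 T cells 1 gene was higher and 1 lower, and 7.60% of all genes were called. The median log2 difference was 0.314, against -0.03 for all genes. At an unadjusted p under 0.05 by edgeR 11 genes were higher and 2 lower, also without a share of all genes. Isg20 was at 97.4, 106, 165, 115, 134 and 147 CPM in Treg cells against 44.1, 29.6, 64.5, 44.6, 53.8 and 56.0 in CD4 T cells, a difference of 1.43 (SE 0.20, adjusted p = 2.15e-08) with no overlap. Ifit1bl1 was lower in Treg cells at -1.41 (SE 0.40, adjusted p = 0.00706).

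Between treatments, classical monocytes, neutrophils, type 2 dendritic cells, C1q macrophages and non-classical monocytes had their lowest list mean in the control mouse, and mature dendritic cells had theirs with anti-PD-L1 alone. A gene was compared where both libraries together had at least 50 UMIs of it in the class, as log2 of the ratio of CPM + 5, and called higher or lower from 1.5-fold, without a test. In classical monocytes the list mean was 5.96 in control, 6.79 with 2DG, 7.05 with 2FF, 6.98 with anti-PD-L1, 7.35 when 2DG was added to it and 7.49 when 2FF was.

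**Figure D2:**
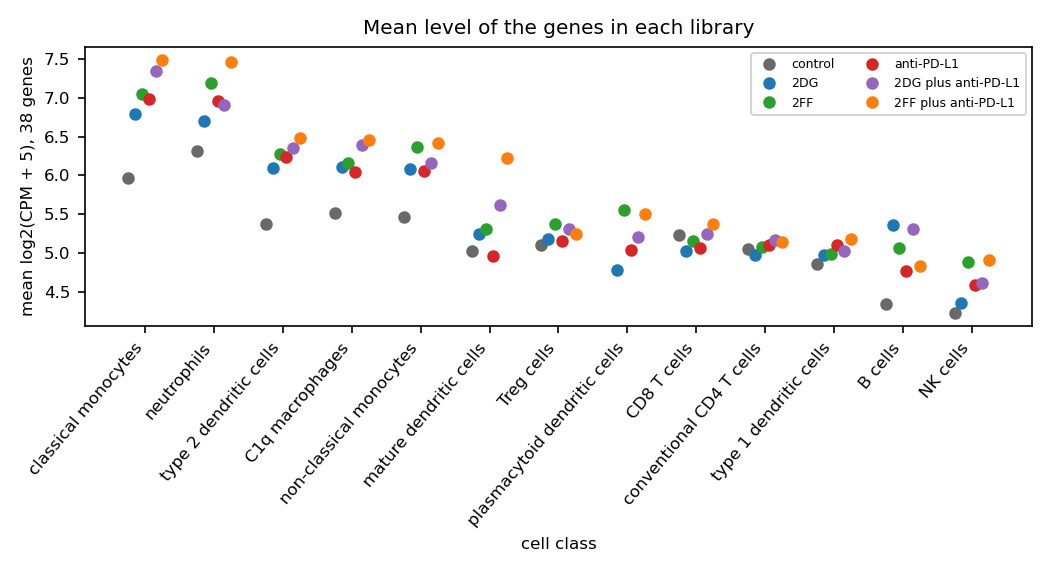
The mean of log2(CPM + 5) over the 38 genes is plotted for each library (coloured points) in each cell class, without error bars since each point is 1 mouse. The control point is lowest in the 5 myeloid classes on the left, with classical monocytes from 5.96 to 7.49, and lies among the others in CD8 T cells, from 5.03 to 5.38.

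In classical monocytes the genes of every role were above control in the treated mice, by amounts that differed between roles. Isg15 was at 172, 281, 506, 304, 578 and 647 CPM, and Herc6 at 70.7, 152, 182, 171, 186 and 265. Both were lowest in control and highest with 2FF plus anti-PD-L1. Of the IFIT family, Ifit1 was at 28.4, 50.3, 73.7, 66.9, 107 and 173 CPM, and Ifit2, which has been linked to cell death, at 47.1, 132, 174, 154, 223 and 318. The libraries of both combinations were above every library without a combination. Oasl1 was at 77.2, 163, 164, 159, 204 and 301 CPM, and Oasl2 at 72.5, 157, 191, 201, 234 and 248. The same order held for the extremes, with 2DG, 2FF and anti-PD-L1 alone close together for Oasl1.

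Among the effectors, Rsad2 was at 152, 209, 270, 299, 425 and 586 CPM. Ifitm3 was at 1336, 2830, 3317, 2681, 3163 and 2590 CPM, so its highest library was 2FF alone and the combination did not add to it. Of the sensors, Zbp1, which binds Z-form nucleic acids, was at 113, 230, 328, 244, 324 and 301 CPM. Zbp1 behaved like Ifitm3, whereas Ifi204, a DNA-binding protein of the IFI200 family, was at 384, 472, 613, 517, 804 and 800 CPM and was highest in the combinations. Stat2 was at 62, 145, 136, 159, 164 and 189 CPM. Sp100 was at 119, 262, 294, 308, 294 and 325 CPM. For these nuclear factors the treated libraries lay close together and far above control. Parp14, an ADP-ribosyltransferase, was at 120, 282, 336, 333, 363 and 374 CPM, and Trim30a, a restraint on Toll-like receptor signaling, at 174, 323, 403, 374, 478 and 518.

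**Figure D3:**
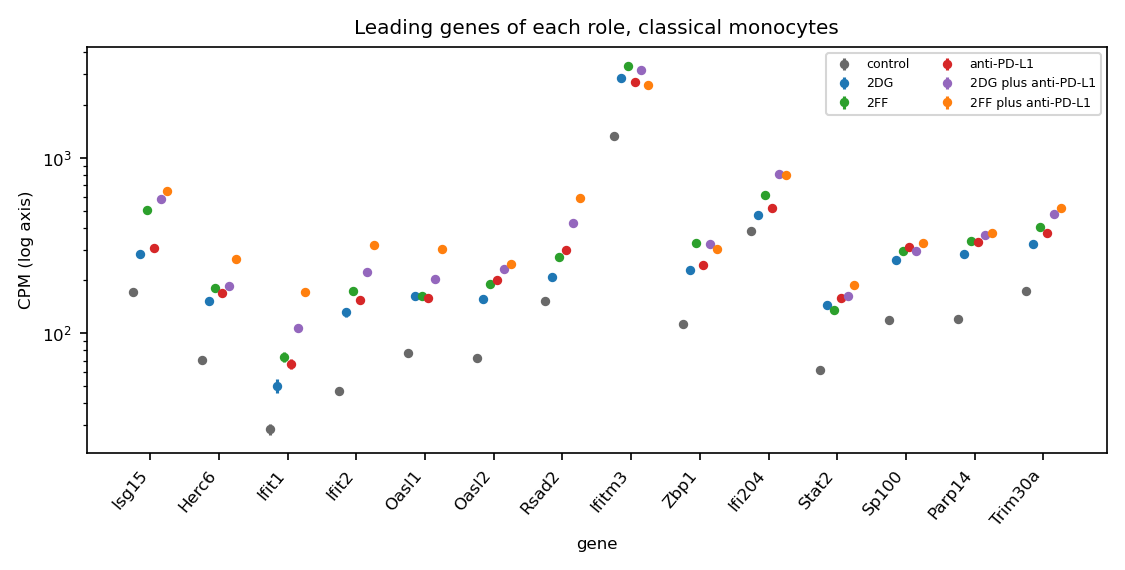
CPM of 14 genes in classical monocytes on a log axis, 1 point for each library with its exact 95% Poisson interval, which is mostly smaller than the point. Control is lowest for all 14 genes, and 2FF plus anti-PD-L1 is highest for Isg15 (647 CPM), Ifit1 (173 CPM) and Rsad2 (586 CPM) but not for Ifitm3 or Zbp1.

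Against control, classical monocytes had 29 of 38 genes higher with 2DG, 35 with 2FF, 31 with anti-PD-L1 and 37 in each combination, and none lower in any of them. Of all genes compared, 11.3%, 10.2%, 11.1%, 10.7% and 9.27% were higher in the same order and 5.84%, 6.23%, 5.16%, 7.36% and 4.52% lower. The median log2 ratios of the interferon-stimulated genes were 0.87, 1.15, 1.08, 1.39 and 1.59, where those of all genes were 0.15, 0.11, 0.13, 0.06 and 0.04. All 5 comparisons share the control library, so they do not add up as separate evidence. With 2FF plus anti-PD-L1 the IFIT family had the largest median, 2.41 over 5 genes, then the ISG15 system at 1.86 over 3, the OAS genes at 1.63 over 6, the signaling and nuclear factors at 1.53 over 5, the effectors at 1.38 over 8 and the sensors at 1.21 over 6. Ifit2 stood at 2.63 (95% counting interval of the CPM ratio 2.67 to 2.84), Ifit3 at 2.44 (2.71 to 3.05) and Ifit1 at 2.41 (2.49 to 2.72), the intervals being without the added 5 CPM and so above the ratio for low genes. The smallest ratios were those of Irf9 at 0.51 (0.45 to 0.66), Samd9l at 0.73 and Bst2 at 0.90.

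The leading genes differed somewhat between the treatments. With 2DG they were Ifit2 at 1.39, Ifit3 at 1.29 and Oas2 at 1.21, and the last were Samd9l and Ifi209 at 0.26 and Isg20 at 0.19. With 2FF, Ifit2 at 1.78, Isg15 at 1.52 and Ifit3 at 1.51 led, and Samd9l at 0.41, Irf9 at 0.32 and Ifit3b at 0.26 came last. With anti-PD-L1, Ifit3 at 1.75, Ifit2 at 1.61 and Oas3 at 1.51 led, with Ifi204 at 0.42, Bst2 at 0.40 and Isg20 at 0.20 at the end. Ifit2 and Ifit3 were thus among the first 3 in each single treatment. With 2DG plus anti-PD-L1, Ifit3 reached 2.37, Ifit2 2.13 and Ifit1bl1 1.83, while Bst2 was at 0.79, Samd9l at 0.75 and Irf9 at 0.29. Irf9, the DNA-binding subunit of ISGF3, was at 49.9, 68.9, 63.5, 75.7, 62.2 and 73.2 CPM, a narrow range beside that of Stat2.

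**Figure D4:**
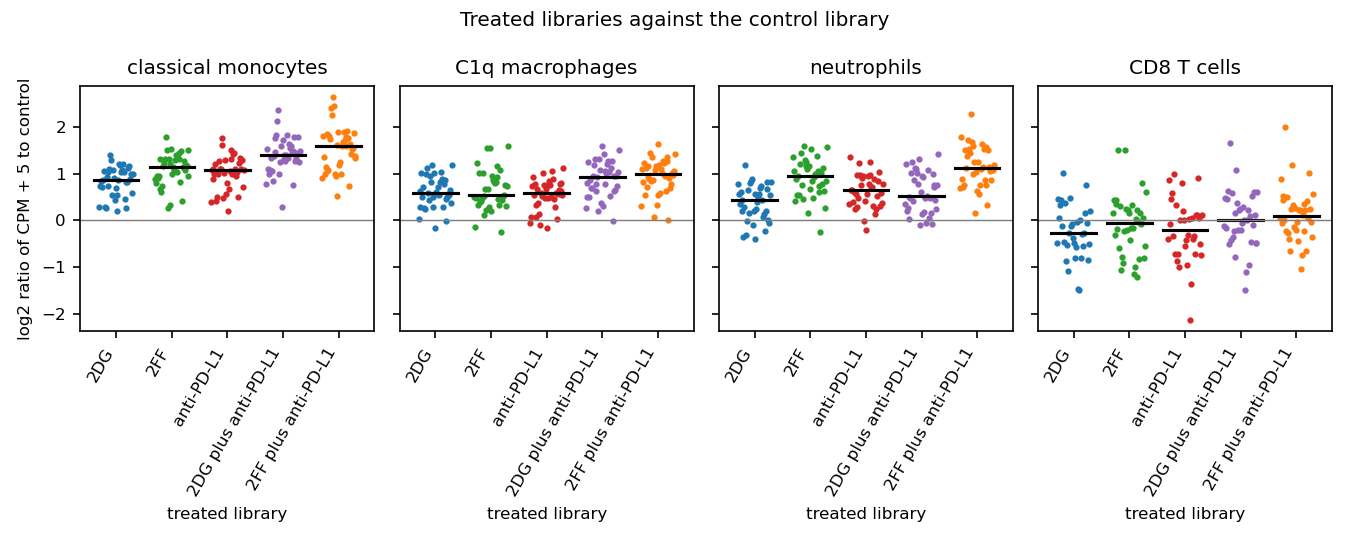
Each point is the log2 ratio of CPM + 5 to control for 1 interferon-stimulated gene that passed the minimum of 50 UMIs, by treated library and class, black bars are medians, and points are spread sideways by gene name only. In classical monocytes all points lie above 0, with medians from 0.87 to 1.59, and in CD8 T cells they scatter around 0, with medians from -0.27 to 0.09.

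In C1q macrophages the same direction was seen with smaller ratios. Against control 19 of 37 genes were higher with 2DG, 18 of 37 with 2FF, 18 of 37 with the antibody, 30 of 38 when 2DG was added to it and 31 of 38 when 2FF was, where 4.04%, 5.59%, 4.57%, 6.55% and 5.04% of all genes were higher. The medians were 0.59, 0.55, 0.58, 0.94 and 0.98. Isg15 in macrophages, listed above, was lowest in control. Zbp1 was at 63.4, 151, 200, 143, 189 and 177 CPM and was among the first 3 genes in all 5 comparisons, at 1.58 (1.55 to 1.77) with 2FF. Rsad2 was at 108, 188, 138, 133, 239 and 267 CPM, with both combinations on top. Samd9l was an exception, at -0.24 (counting interval -0.42 to -0.12) with 2FF and at 0.00 with 2FF plus anti-PD-L1, and Bst2 was between -0.07 and 0.30 with 2DG, anti-PD-L1 and the combinations.

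Neutrophils gave 12, 29, 20, 18 and 34 higher genes of 37 against control, with medians of 0.42, 0.95, 0.64, 0.53 and 1.12, beside 0.25, 0.24, 0.10, 0.22 and 0.03 for all genes. This class differed from control in many genes, and 26.5%, 25.5%, 17.7%, 22.9% and 12.5% of all genes were higher, so the counts for 2DG, anti-PD-L1 and 2DG plus anti-PD-L1 stand less far above the background than in monocytes. Rsad2 was at 601, 627, 915, 1109, 845 and 1800 CPM, and Ifit2 at 57.1, 92.7, 181, 140, 130 and 297. With 2FF plus anti-PD-L1, Ifit2 led at 2.28, followed by Cmpk2 at 1.79 and Ifih1 at 1.72, and Irf9 was last at 0.16. The control neutrophils numbered 3513 and those of the treated libraries 303 to 549, and the sum of 12 dissociation and stress genes was 17710 CPM in control and 11570 to 14300 in the others, and the part of this in the result was not tested.

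Type 2 dendritic cells gave 23 of 35, 27 of 34, 28 of 35, 29 of 35 and 33 of 35 higher genes, with 6.65%, 11.1%, 8.71%, 10.2% and 9.79% of all genes higher and medians of 0.80, 0.98, 0.95, 1.01 and 1.12. Zbp1 was at 45.0, 120, 220, 157, 207 and 197 CPM, and Isg15 at 79.5, 168, 302, 159, 226 and 292, both lowest in control. With 2FF plus anti-PD-L1 Oas2 led at 2.26, then Zbp1 at 2.02 and Ifi204 at 1.98. Rsad2 was an exception in this class, at 35.1, 75.0, 40.2, 63.8, 35 and 44.9 CPM, with no order by treatment.

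Non-classical monocytes gave 22 of 35, 27 of 34, 19 of 33, 22 of 34 and 26 of 34 higher genes, where 10.2%, 11.1%, 10.2%, 11.4% and 9.56% of all genes were higher, with medians of 0.75, 0.89, 0.64, 0.76 and 0.97. Oasl2 was among the first 3 genes in all 5 comparisons, at 1.52, 2.00, 1.57, 1.77 and 1.95, and Ifit2 led with 2DG at 1.64 and with 2FF at 2.13. Rsad2 was an exception, at -0.49, 0.25, -0.35, -1.05 and 0.03. Isg15 was among the last 3 with 2DG at -0.21, with the antibody at -0.25 and with 2FF plus anti-PD-L1 at 0.30. Its values in this class, given above, overlapped between control and treated libraries.

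The place of the control library was counted over all 6 libraries, for genes with at least 100 UMIs in the class. In classical monocytes 38 of 38 interferon-stimulated genes were lowest in control, against 41.0% of all genes, and 27 of 38 were highest with 2FF plus anti-PD-L1, against 9.40%. In C1q macrophages these counts were 32 of 38 (24.1% of all genes) and 22 of 38 (8.06%), and in neutrophils 29 of 37 (35.1%) and 24 of 37 (6.96%). In type 2 dendritic cells 33 of 36 were lowest in control (25.6%), and in non-classical monocytes 30 of 36 (30.7%). In CD8 T cells 10 of 37 were lowest in control, below the 34.9% of all genes. Cells with at least 3 markers of another lineage were more common among the classical monocytes of control. Without them 1608 of 2972 remained in control, 973 of 1148 with 2DG, 1514 of 1782 with 2FF and 1865 of 2107 with anti-PD-L1. In its combinations with 2DG and 2FF, 1649 of 1959 and 1824 of 2296 remained. The part of this in the counts was not tested.

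In CD8 T cells the genes lay on both sides of control. Against control 2 of 34 genes were higher and 7 lower with 2DG, 4 and 9 of 36 with 2FF, 4 and 9 of 34 with anti-PD-L1, and 5 and 4 of 36 and 4 and 4 of 36 in its combinations with 2DG and with 2FF. Of all genes 6.36%, 10.2%, 8.83%, 9.15% and 7.73% were higher and 5.75%, 5.84%, 6.12%, 8.47% and 5.63% lower. The medians were -0.27, -0.05, -0.20, 0.00 and 0.09. Isg15 was at 69.7, 52.7, 81.8, 46.1, 81.5 and 84.4 CPM and Sp100 at 414, 461, 393, 449, 385 and 431, with control inside the range of the others. Ifit2, Oasl1 and Oasl2 were lower in all 5 comparisons, and Ifit1, Rsad2, Usp18, Samd9l, Ifi209, Ifit1bl1, Ms4a4c and Xaf1 in 1 to 3 of them. Oasl1 was at 36.9, 10.2, 14.0, 4.60, 9.99 and 15.5 CPM, and with anti-PD-L1 its ratio was -2.13 (35 control UMIs, counting interval of the CPM ratio -3.64 to -2.35). Oasl2 was at 29.6, 7.22, 12.2, 8.55, 11.1 and 15.7 CPM, and Ifit2 at 62.3, 26.6, 30.5, 28.7, 34.1 and 37.5. For these 3 genes control was above every treated library, on the 126 CD8 T cells it held.

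Higher in treated CD8 T cells were Ifi204 at 5.28, 15.6, 24.3, 15.3, 27.5 and 35.9 CPM, which rested on 5 UMIs in control, Ifitm3 at 58.0, 82.5, 173, 105, 128 and 139, and Stat2 at 23.2, 42.7, 44.1, 48.2, 37.9 and 51.5. Both Ifi204 and Ifitm3 are abundant in monocytes. In the CD8 T cells the sum of 6 macrophage genes was 700 CPM in control and 883 to 1105 in the treated libraries, and that of 7 neutrophil genes 210 in control and 60.8 to 266. The part of RNA from other cells in these values was not tested. Without cells that held at least 3 markers of another lineage, the lower genes over CD8 T cells, classical monocytes, C1q macrophages and neutrophils together numbered 5 instead of 9 with 2FF, 4 instead of 9 with anti-PD-L1, 0 instead of 4 with 2DG plus anti-PD-L1 and 1 instead of 4 with 2FF plus anti-PD-L1.

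B cells and NK cells also had their lowest list mean in the control mouse, on few cells there. In B cells the mean was 4.34 in control, from 81 cells, and 4.76 to 5.37 in the treated libraries. Against control 12 of 18 genes were higher in B cells with 2DG, 14 of 23 with 2FF, 6 of 14 with anti-PD-L1, 20 of 27 when 2DG was added to it and 5 of 18 when 2FF was, where 9.83%, 21.0%, 15.5%, 16.2% and 9.93% of all genes were higher. In NK cells the list mean was 4.23 in control, from 25 cells, and 4.36 to 4.91 in the treated libraries. Treg cells were at 5.11 in control, from 87 cells, and at 5.15 to 5.38 in the treated libraries. Type 1 dendritic cells were at 4.86 in control, from 97 cells, and at 4.98 to 5.18 in the treated libraries. Conventional CD4 T cells had medians against control between -0.07 and 0.14, and Treg cells between -0.05 and 0.10.

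The combinations were then compared with anti-PD-L1 alone, the contrast of the study that does not use the control mouse. In classical monocytes 7 of 38 genes were higher with 2DG plus anti-PD-L1 and 15 of 38 with 2FF plus anti-PD-L1, where 2.10% and 2.62% of all genes were higher, with medians of 0.37 and 0.50. With 2FF plus anti-PD-L1, Ifit1 led at 1.31 (1.27 to 1.47), followed by Ifit1bl1 at 1.16 (1.17 to 1.57) and Isg15 at 1.08 (1.04 to 1.14). Irf9 at -0.04, Ifitm3 at -0.05 and Oas1a at -0.07 were last. With 2DG plus anti-PD-L1, Isg20 at 1.11 (1.07 to 1.44), Isg15 at 0.92 (0.87 to 0.98) and Ms4a4c at 0.73 led, and Ddx58 at -0.01, Sp100 at -0.07 and Irf9 at -0.26 were last. Isg15 was in the first 3 of both, and Irf9 in the last 3 of both.

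In C1q macrophages 9 of 38 and 12 of 37 genes were higher in the combinations than with anti-PD-L1 alone, where 2.61% and 1.92% of all genes were, and Ifit1 led both at 1.18 and 1.30. In neutrophils 1 of 34 was higher with 2DG plus anti-PD-L1 and 17 of 35 with 2FF plus anti-PD-L1, where 12.0% and 6.33% of all genes were, so the combinations parted in this class. Oasl1 in neutrophils was at 326 CPM with anti-PD-L1, 158 with 2DG plus anti-PD-L1 (log2 ratio -1.02, interval -1.31 to -0.77) and 522 with 2FF plus anti-PD-L1. In CD8 T cells 5 of 37 and 6 of 37 genes were higher, where 2.68% and 1.97% of all genes were. Isg15 led with 2DG plus anti-PD-L1 at 0.76, and Oasl1 with 2FF plus anti-PD-L1 at 1.09.

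Mature dendritic cells, which have taken up antigen and express Ccr7, had 9 of 21 and 19 of 25 genes higher than with anti-PD-L1 alone, where 6.71% and 7.28% of all genes were, with medians of 0.43 and 1.08. Ifit2 was at 14.8, 15.8, 28.1, 4.41, 42.3 and 64.5 CPM, so its lowest library was anti-PD-L1 alone, with 6 UMIs against 56 in 2FF plus anti-PD-L1. Its ratio was 2.89 (interval of the CPM ratio 2.66 to 5.38). Ifit1 was at 2.59 (2.26 to 4.26) and Ifi204 at 2.51 (2.16 to 3.57). These values come from 82 to 152 cells a library.

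Against its own inhibitor alone, each combination was again the higher in classical monocytes, for 17 of 38 genes with 2DG and 10 of 38 with 2FF, where 2.57% and 2.45% of all genes were, with medians of 0.55 and 0.39. Isg20 at 1.11, Ifit3 at 1.08 and Isg15 at 1.03 led over 2DG, and Ifit1 at 1.18, Rsad2 at 1.10 and Ifi44 at 1.05 over 2FF. Ifitm3 at -0.36 (-0.38 to -0.34), Zbp1 at -0.12 and Oas1a at -0.08 were last over 2FF. In C1q macrophages 5 of 38 and 8 of 38 genes were higher (2.46% and 1.22% of all genes), and in neutrophils 8 of 34 and 6 of 35 (7.57% and 5.99%).

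The 3 pairs without and with anti-PD-L1, namely control, 2DG and 2FF each with its partner, share no library. In classical monocytes 34 of 38 genes were higher with the antibody in all 3 pairs, against 11.1% of all genes, in C1q macrophages 25 of 37 (9.76%), in neutrophils 20 of 34 (7.29%), in type 2 dendritic cells 18 of 35 (13.8%) and in CD8 T cells 11 of 34 (9.56%). The count was 14 of 33 in non-classical monocytes (13.3%) and 10 of 19 in mature dendritic cells (14.5%). In B cells it was 1 of 14 (13.5%), in Treg cells 2 of 23 (11.8%) and in conventional CD4 T cells 1 of 29 (11.0%), shares at or below those of all genes. Rsad2 in classical monocytes differed by 0.96 to 1.10 in the 3 pairs. Stat2 differed by 1.29, 0.17 and 0.46, so the pair with the control library carried most of it. Parp14 showed the same, with 1.43, 0.36 and 0.15.

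The antibody was then tested over these 3 pairs with edgeR's quasi-likelihood test on the sums of each class, with the inhibitor as a block and 2 residual degrees of freedom, a test chosen after the values were seen. In classical monocytes the median log2 difference of the 38 genes was 0.68, and none was called at an adjusted p under 0.05 (0.00% of all genes called higher). At an unadjusted p under 0.05, 31 of 38 genes were higher and 0 lower, where 3.47% of all genes were higher. DESeq2 called 9 of the list higher, and 36 of all genes in either direction. Ifit3 had a difference of 1.43 (SE 0.20, edgeR adjusted p = 0.356) and Ifit1 one of 1.17 (SE 0.14, edgeR adjusted p = 0.356). No gene of the list was called by edgeR or DESeq2 in C1q macrophages, neutrophils or CD8 T cells either (0.00%, 0.00% and 0.00761% of all genes called higher by edgeR). At an unadjusted p under 0.05, 22 of 38, 7 of 36 and 3 of 38 genes were higher there and 0 lower, against 2.81%, 0.895% and 2.05% of all genes. In type 2 dendritic cells 1 of 37 was called higher by edgeR (0.196% of all genes). It was Ifi204, at 49.9, 92.9, 147, 137, 177 and 212 CPM, a difference of 0.985 (SE 0.19, edgeR adjusted p = 0.0339), and it lost the call with the 2DG pair or the control pair left out and without the block. In each pair it was higher with the antibody. At an unadjusted p under 0.05, 19 of 37 genes were higher in this class and 0 lower (4.69% of all genes higher).

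In the other 5 classes edgeR and DESeq2 called no gene of the list for the antibody. At an unadjusted p under 0.05 by edgeR, 7 of 38 genes were higher and 1 lower in non-classical monocytes (3.57% of all genes higher), 6 of 31 and 0 in mature dendritic cells (2.91%), 3 of 36 and 0 in conventional CD4 T cells (3.48%), 1 of 32 and 0 in B cells (0.763%) and 0 of 33 and 0 in Treg cells (1.93%).

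Counted cell by cell, treated monocytes carried more of the genes at the low end, the middle and the high end of their distribution. Each cell was thinned to 2000 UMIs, which left out 464 classical monocytes as too shallow, 324 of them in control. The median number of the 38 genes with at least 1 UMI was 4 in control and 7, 8, 7, 9 and 10 in the treated libraries. Cells with at least 10 of the genes made up 12.7% (exact interval 11.5 to 14.1) of classical monocytes in control, 28.2% (25.6 to 31.0) with 2DG, 39.6% (37.3 to 41.9) with 2FF, 34.1% (32.1 to 36.2) with anti-PD-L1, 47.3% (45.0 to 49.5) with 2DG plus anti-PD-L1 and 52.3% (50.2 to 54.4) with 2FF plus anti-PD-L1. Unthinned, these shares were 50.1%, 81.9%, 88.1%, 81.2%, 90.6% and 92.3%, at median depths of 10100, 7508, 7015, 6760, 6660 and 8284 UMIs, so the control monocytes were the deepest and had the lowest share. The cells at the 10% point of the distribution also differed, with 1 gene in control and 3 or 4 in the treated libraries. For UMIs of the list without Ifitm3, the 10% of cells with the most held 43.9% in control and 34.4% to 38.4% in the treated libraries.

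**Figure D5:**
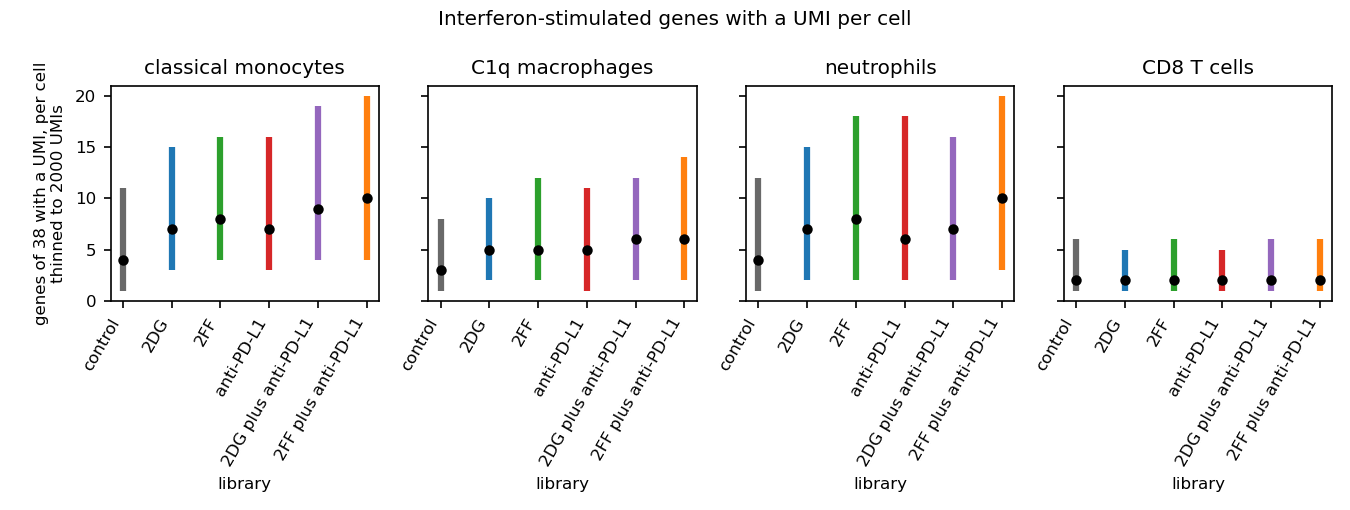
Number of the 38 genes with at least 1 UMI in cells thinned to 2000 UMIs, with the median (point) and the range from the 10% to the 90% point of cells (bar), by library and class. In classical monocytes the median goes from 4 in control to 10 with 2FF plus anti-PD-L1, while it is 2 in all 6 libraries in CD8 T cells.

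Neutrophils had medians of 4, 7, 8, 6, 7 and 10 genes and shares of 18.0%, 26.7%, 45.1%, 31.6%, 33.3% and 52.8% with at least 10, or 37.5%, 47.0%, 55.7%, 45.3%, 43.9% and 72.5% unthinned. In C1q macrophages the medians were 3, 5, 5, 5, 6 and 6 and the shares 6.55%, 12.1%, 16.8%, 11.9%, 18.2% and 21.4%, or 48.6%, 64.8%, 75.0%, 60.1%, 79.0% and 68.9% unthinned. In CD8 T cells, a class of low level in which free RNA would also be counted, the median was 2 in every library and the share 2.59%, 2.25%, 3.02%, 3.65%, 3.76% and 5.25%, at median depths of 5981 to 8124 UMIs. The control share there, 2.59%, has an exact interval of 0.54 to 7.37 and covers all the others. Unthinned it was 27.0% in control and 16.7% to 27.1% in the treated libraries.

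The genes upstream of the response were read from a list of 30 receptors, kinases, factors and ligands, 28 with a row. Ifnb1, the gene of interferon beta, had 210 UMIs in all classed cells, 168 of them in C1q macrophages. In macrophages its UMIs were 10, 21, 48, 3, 42 and 44, or 0.79, 1.70, 2.58, 0.28, 2.79 and 2.94 CPM, and the library given anti-PD-L1 alone was the lowest. Classical monocytes held 17 Ifnb1 UMIs and type 2 dendritic cells 7. Plasmacytoid, mature and type 1 dendritic cells held 0, which for the 210 plasmacytoid cells allows up to 3 UMIs. Of the interferon alpha genes, Ifna2 had 9 UMIs, Ifna4 4 and Ifna16 2, so transcripts of the alpha ligands were at the edge of detection at this depth. Ifnk, the gene of interferon kappa and not on the list, had 67 UMIs in all classed cells, 7 of them in C1q macrophages. By library its UMIs were 10, 11, 8, 15, 13 and 10.

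Of the upstream genes, 7 of 22, 9 of 22, 7 of 23, 9 of 23 and 9 of 23 were higher than control in classical monocytes and none was lower, with medians of 0.40, 0.39, 0.47, 0.38 and 0.35. Of all genes 11.3%, 10.2%, 11.1%, 10.7% and 9.27% were higher there. Irf1 was at 122, 416, 428, 416, 456 and 325 CPM in classical monocytes, and in CD8 T cells at 158, 284, 268, 291, 267 and 239, so in T cells it was lowest in control while most interferon-stimulated genes were not. Between classes, none of 22 upstream genes tested was called by edgeR between C1q macrophages and classical monocytes (2 higher and 12 lower at an unadjusted p under 0.05), in CD8 against CD4 T cells (5 and 4) or in Treg against CD4 T cells (9 and 2). Of all genes 10.4%, 5.91% and 7.60% were called in the same order, and the unadjusted counts have no share of all genes beside them. In neutrophils Irf1 was higher than in classical monocytes at 1.87 (edgeR, adjusted p = 7.74e-17), and 6 genes were lower (Irf8, Mavs, Tmem173, Tlr3, Tlr8 and Ticam1). These made up 31.8% of the 22 upstream genes tested, about the same as the 31.0% of all genes called between these classes. Non-classical monocytes had Tlr7 higher at 1.18 (edgeR, adjusted p = 3.5e-08) and Tmem173, Tlr3 and Ikbke lower. That was 18.2% of the upstream genes, where 13.2% of all genes were called. In type 1 dendritic cells Irf8 was higher than in type 2 at 3.58, beside Tlr3, which is a marker of their gate, and Tlr7, Tlr8 and Socs3 were lower. Here 22.7% of the upstream genes were called, where 17.6% of all genes were.

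A list of 13 genes tied to interferon gamma was set beside the type I list. It held responding genes such as Cxcl9, Ciita and Gbp2, and also Ifng itself and its receptor genes Ifngr1 and Ifngr2. The sum of these 13 genes in classical monocytes was 1218, 1880, 2477, 2103, 2469 and 2174 CPM. Their median ratios to control were 1.22, 1.64, 1.26, 1.53 and 1.46. Both lists thus had medians above 0 in every treated library. The interferon gamma genes had the larger median over control in every treated library but 2FF plus anti-PD-L1, so the rise was not particular to the type I list. Against anti-PD-L1 alone the interferon gamma genes had medians of 0.18 with 2DG plus anti-PD-L1 and -0.02 with 2FF plus anti-PD-L1, where the type I list had 0.37 and 0.50. Against 2FF alone the interferon gamma genes had a median of -0.27 with 2FF plus anti-PD-L1 and the type I list 0.39. The sum of 12 stress genes in classical monocytes was 9926 CPM in control, 8510, 9027 and 9722 with the single treatments and 11170 and 10180 in the combinations, and that of 7 neutrophil genes was 999 with anti-PD-L1 and 2149 and 1887 in the combinations. The part of these in the higher level of the combinations was not tested.

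The genes outside the list whose level followed the list mean most closely, over 77 points of class and library with at least 20 cells, were Mefv (Pearson's r 0.94), Trim30c (0.90), Gbp2 (0.90), Rnf213 (0.90), Cxcl10 (0.90), Oas1g (0.89), Tgm2 (0.88), Tarm1 (0.88), Tlr2 (0.87) and Slfn1 (0.87). The points share libraries and cells of like kind, and these values are descriptions. Within the list Oas3 (0.92), Oas2 (0.92) and Rtp4 (0.92) followed the mean of the list most closely. Samd9l (0.27), Bst2 (0.24) and Sp100 (0.02) followed it least. Tumor cells numbered 48 over 5 libraries and 0 in control, too few for a comparison, with list means of 4.95 to 6.43.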

How the data were processed

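Single-cell RNA was measured with the 10x 3' kit v3.1 in 6 libraries, 1 mouse and 1 treatment each. The files the authors deposited hold UMI counts of each gene in each cell barcode, not normalized, made with Cell Ranger on mm10 (version 3.1.0 in the submitters' processing notes, a later one in the study's methods). Cells with at least 250 genes and at most 5% mitochondrial UMIs were kept and put into 14 classes by at least 3 markers of a fixed panel. No doublet caller was run, and leaving out cells with at least 3 markers of another lineage is an alternative instead. UMI counts were summed by library and class, since cells are not replicates, and levels are CPM of these sums. Median depth was 6196 to 7732 UMIs a cell.

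Class contrasts were fitted with edgeR 4.0.16 (R 4.3.3) by the quasi-likelihood test with TMM scaling, filterByExpr and library as a block over 77 sums of at least 20 cells, with DESeq2 1.42.0 as an alternative. The library pairs the classes because all classes of a library come from the same mouse. These p-values rest on how the class sums scatter over the libraries once the library term is taken out. All classes share the estimate of this spread, and the 6 mice were given different treatments. The fit was tested on simulated data. Single treatments had no replicate, so they were compared without a test in classes of at least 50 cells. The antibody was tested in each such class over its 3 pairs, with edgeR and the inhibitor as a block, an analysis added after the data were seen. Intervals are exact, at 95%, and cover counting error alone. Named genes were the 2 of each role with the most UMIs and the 3 highest and 3 lowest in a comparison. The 10 genes most like the list mean were also named. The genes of the first kind were all given in every library for classical monocytes only, and other classes show a selection of genes. The genes, lists and markers were chosen with earlier results of these data known. Other alternatives were thinning, a 10% mitochondrial limit, another added CPM, other UMI minimums, centring, no filter, no block and leaving out the control library or an antibody pair. A few items are not reported here. Python 3.11.15 with NumPy 2.4.6, pandas 2.3.3, SciPy 1.17.1 and matplotlib 3.10.9 was used.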

Additional observations from a re-analysis of the deposited data

Results flagged for a closer look

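In the 3 pairs without and with anti-PD-L1, 7 genes were higher with the antibody in all 3 pairs in 1 or more classes and lower in all 3 pairs in another class, with 1 mouse at each point. This difference between classes was not tested in any of them. Genes lower in all 3 pairs made up 4 of 23 of the list in Treg cells, where 11.7% of all genes were lower. They made up 2 of 29 in conventional CD4 T cells and 1 of 33 in non-classical monocytes, against 15.3% and 14.6% of all genes. In Treg cells 4 genes are too few to set the list apart from all genes, and in the other classes named the list was below their share. Rsad2 differed by 0.96 to 1.10 on the log2 scale in classical monocytes and by -0.35, -0.56 and -0.22 in non-classical monocytes. Samd9l differed by 0.50, 0.49 and 0.32 in classical monocytes and by -0.71, -0.14 and -0.08 in conventional CD4 T cells. In Treg cells the 3 pairs were at -0.24, -0.22 and -0.44 for Parp14 and at -0.24, -0.12 and -0.39 for Rtp4. They were at -0.31, -0.20 and -0.08 for Stat2 and at -0.04, -0.21 and -0.03 for Eif2ak2. Each of these genes was above 0 in all 3 pairs in classical monocytes. Ddx58 was at -0.11, -0.13 and -0.11 in conventional CD4 T cells against 1.10, 0.25 and 0.41 in classical monocytes. A search for single samples far from the others was not possible because each treatment had 1 library.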

How the results depend on the processing

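The counts of higher genes in all 9 treatment comparisons, taken over CD8 T cells, classical monocytes, C1q macrophages and neutrophils together, stayed within 1.5 times their value under every alternative run. Counts of lower genes were small and less stable. With each cell thinned to 1000 UMIs they were 3 instead of 7 for 2DG over control, 4 instead of 9 for 2FF over control, 5 instead of 3 for 2DG plus anti-PD-L1 over the antibody alone, 3 instead of 1 for 2DG plus anti-PD-L1 over 2DG and 0 instead of 1 for 2FF plus anti-PD-L1 over 2FF. The stricter gate, without cells holding 3 markers of another lineage, gave 5 instead of 9 with 2FF, 4 instead of 9 with anti-PD-L1, 0 instead of 4 with 2DG plus anti-PD-L1 and 1 instead of 4 with 2FF plus anti-PD-L1, all over control. The 10% mitochondrial limit gave 0 for 2DG plus anti-PD-L1 over 2DG, and centring on the median of all genes gave 0 for 2FF plus anti-PD-L1 over 2FF. The median of CD8 T cells with anti-PD-L1 over control turned from -0.200 to 0.007 when genes with at least 20 UMIs were admitted. Under the stricter gate the list means were 5.06 in Treg cells, 4.95 in CD8 T cells, 4.86 in conventional CD4 T cells and 4.53 in B cells.

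In the class contrasts, neutrophils had 7 instead of 11 higher genes without the control library, and 12 with a classical monocyte gate that did not use Ly6c2 and Plac8, which was chosen after seeing the data. Of the T-cell contrasts, CD8 over CD4 T cells had 1 higher gene with DESeq2, 1 with the stricter gate and 0 with no replicate block, and 2 lower genes with DESeq2 and with the stricter gate. Treg over CD4 T cells had 2 higher genes with DESeq2 and 3 with the stricter gate, and 2 lower genes with the stricter gate and without the control library, and 1 with the changed monocyte gate. The other counts stayed within 1.5 times. The cause of these shifts was not tested. For the antibody over its 3 pairs, DESeq2 called 9 genes in classical monocytes instead of 0. It called 36 of all genes there in either direction. Leaving out the control pair gave 1 in C1q macrophages instead of 0 (0 to 1 over the pairs). Type 2 dendritic cells had 0 instead of 1 with no replicate block (no inhibitor term), and 0 without the control pair or without the 2DG pair (0 to 1 over the pairs). The counts in neutrophils and CD8 T cells were 0 in all these fits. Low counts in CD8 T cells of the control mouse and in dendritic classes limit single genes most, and 1 mouse a treatment limits every treatment comparison.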
